A study of Homo sapiens with 29 samples.

Results

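Helicon4 at its lower dose was compared with vehicle in tumors grown in mice from COLO320DM cells, an established human line that comes from a colorectal adenocarcinoma and carries extra copies of MYC. The comparison took the 6 libraries labelled Helicon4 at 30 mpk and the 10 labelled vehicle, 16 of the 29 libraries of the series, and all 13373 of 13492 genes that passed a minimum level. Helicon4 is described by the series as a helicon peptide aimed at β-catenin and TCF, and mpk is the dose unit as labelled. Tumors were labelled 48 h. The other 13 libraries, 8 of Helicon4neg at 30 mpk and 5 of Helicon4 at 100 mpk, were used to set the matched control compound and the higher dose beside the comparison. All 4 groups carried the same cell line in mice that had been assigned at random once tumors averaged about 300 mm3, and the labels give neither the strain, age and sex of the mice nor the chemistry of the compounds. Only replicate numbers say that the libraries of a group came from separate animals, so p-values measure the spread between these libraries.

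In canonical Wnt signaling, a destruction complex built on AXIN and APC marks β-catenin for degradation, and a Wnt ligand bound to Frizzled and LRP receptors stops this. β-catenin that accumulates enters the nucleus, binds TCF and LEF factors and turns on target genes. Many targets encode inhibitors of the pathway itself, and in colorectal tumors, where the destruction complex is often broken by mutation, these inhibitors are commonly expressed at high levels.

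Values are reads per gene scaled by the authors per M reads after adjustment between libraries, called scaled CPM here. Fold changes are differences of mean log2(scaled CPM + 1) with their standard error (SE), which understates the change of genes near 1 scaled CPM, and a gene was called when its limma p adjusted over all genes was under 0.05. Depth ran from 40.8 to 48.6 M reads for Helicon4 at 30 mpk and from 26.8 to 60.9 M for vehicle. The epithelial markers EPCAM, KRT8, KRT18 and CDX2 were expressed in both groups and were not called. Library titles carried 7 codes of unstated meaning, and no code held both vehicle and Helicon4, so code and treatment cannot be told apart except through Helicon4neg, which shared a code with each. With the code as a block, the treated arm is library 1 of Helicon4 at 30 mpk alone, the only one that shares a code with Helicon4neg, and the vehicle arm is libraries 9 and 10. That fit assumes that the lone library varies like the others, so calls it keeps or ends describe that library and are no replicate check. With this block the SE grew by a median of 2.687 times and 74 genes were called, all 74 of them among the genes called without it. Vehicle library 6 and Helicon4neg library 2 had been described as standing apart in earlier results, and without both of them 2193 genes were called. A call that the code block ended is given as such beside the gene or list.

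Helicon4 at 30 mpk changed 1481 genes, 11.1% of those tested, with 783 higher (5.86%) and 698 lower (5.22%). At 1.5-fold and more 238 were higher (1.78%) and 241 lower (1.8%), and beyond that falls outnumbered rises. Among called genes, 94 were at least 2-fold lower (0.703%) and 52 at least 2-fold higher (0.389%), and 13 were at least 4-fold lower (0.0972%) against 2 at least 4-fold higher (0.015%). The libraries of the groups did not overlap for 581 genes (4.34%), 262 above vehicle (1.96%) and 319 below (2.39%). The median fold change of all genes was -0.00. The called genes were chosen with these same libraries, so their direction in each library is no separate check. In each of the 6 treated libraries the median deviation from the vehicle mean lay between 0.41 and 0.60 for the 783 higher genes. For the 698 lower ones it lay between -0.56 and -0.41, with library 1 farthest from vehicle in both. Without that library 983 genes were called.

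**Figure D1:**
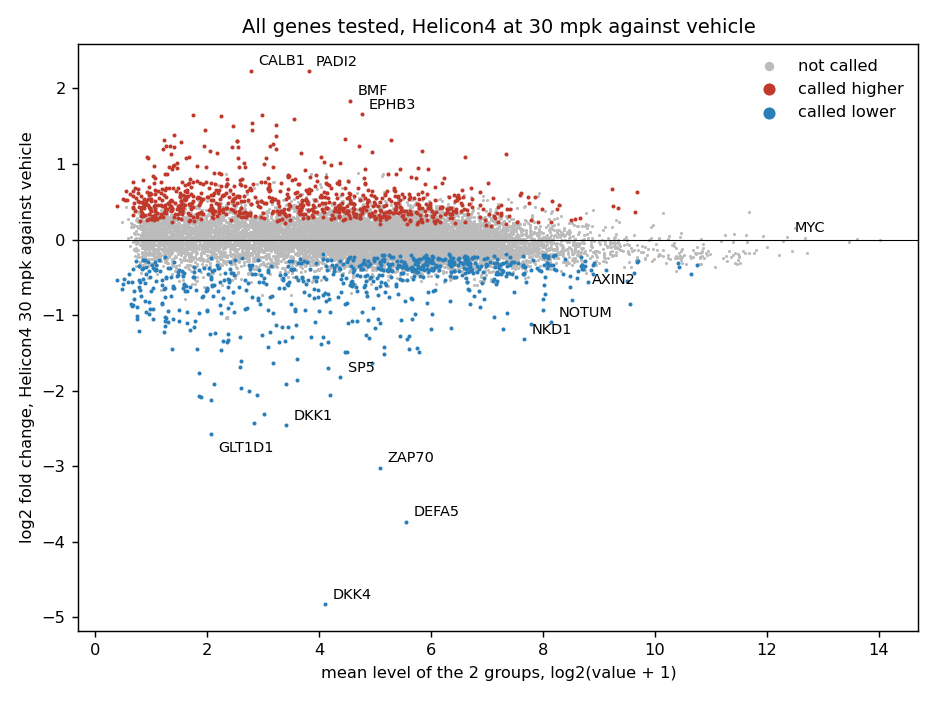
Each point is 1 of 13373 genes, with the mean level of both groups on the horizontal axis, as log2(scaled CPM + 1), and the log2 fold change of Helicon4 at 30 mpk against vehicle on the vertical axis. Red and blue points are genes called higher and lower. DKK4, DEFA5 and ZAP70 lie lowest, CALB1 and PADI2 highest, and MYC lies near 0 at the right.

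The gene that fell most encodes a secreted Wnt antagonist, and several inhibitors of the pathway fell with it. Of 15 core Wnt genes, 6 fell and 1 rose, against 11.1% of all genes called in either direction, and the median fold change of the 15 was -0.29. DKK4, which encodes a secreted inhibitor that binds LRP co-receptors, had 15.8, 27.5 and 51.9 scaled CPM as its lowest, median and highest vehicle values, and 0.0236, 0.0861 and 0.201 with Helicon4. The 6 treated libraries held 1 to 10 DKK4 reads each, 27 in all, where the 10 vehicle libraries held 14725. Its log2 fold change was -4.83 ± 0.22 (SE, adjusted p = 3.88e-16), and -5.79 with the code block. DKK1, a second antagonist of the same family, had 11.1, 16.3 and 25.9 scaled CPM in vehicle and 1.73, 2.27 and 2.91 with Helicon4, with no overlap (-2.46 ± 0.17, adjusted p = 3.11e-12). NOTUM, a secreted enzyme that removes the lipid of Wnt ligands, had 273, 381 and 476 against 130, 185 and 217 scaled CPM (-1.09 ± 0.14, adjusted p = 6.95e-07). All NOTUM libraries of the treated group lay below all of vehicle, and the code block ended the call (-0.71, adjusted p = 0.51, the highest adjusted p over its alternatives).

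NKD1, SP5, AXIN2 and CTNNB1 act inside the cell. NKD1, which restrains the pathway at Dishevelled, had 214, 299 and 328 scaled CPM in vehicle and 103, 108 and 142 with Helicon4 (-1.32 ± 0.12, adjusted p = 8.02e-10), without overlap. SP5, a transcription factor gene and a direct Wnt target, had 19.2, 32.5 and 43.9 against 6.86, 7.68 and 10.7 scaled CPM, also without overlap (-1.82 ± 0.16, adjusted p = 4.52e-10). Its call was lost with the code block, at -1.54. AXIN2, a scaffold of the destruction complex and the most used readout of the pathway, had 397, 500 and 541 scaled CPM in vehicle and 329, 386 and 420 with Helicon4. These ranges overlapped, and the fold change was -0.35 ± 0.09 (adjusted p = 0.00804), a call that the code block ended at -0.40. CTNNB1, which encodes β-catenin, rose from 260 ± 22.7 (SD, n = 10) to 305 ± 18.7 scaled CPM (SD, n = 6), a fold change of 0.24 ± 0.06 (adjusted p = 0.00793), and this call too was lost with the block (0.19).

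The other 8 core genes were not called. MYC, amplified in this line, had 3727, 5183 and 6534 scaled CPM in vehicle and 4792, 5394 and 5696 with Helicon4, a difference of 0.03 with 95% limits of -0.19 and 0.25. LEF1, a partner factor of β-catenin, differed by 0.01 (limits -0.16 and 0.17), and RNF43, a ubiquitin ligase that removes Frizzled receptors, by 0.16 (-0.04 to 0.36). Values for the cyclin gene CCND1, the stem cell receptor gene LGR5, the ligase gene ZNRF3 and the factor gene TCF7 were -0.29, -0.21, -0.19 and -0.19, with upper limits of 0.07, 0.11, 0.08 and 0.06. ASCL2, a stem cell transcription factor gene, had -0.47 (-0.87 to -0.08, adjusted p = 0.12), and its treated range of 29.2 to 40.4 scaled CPM overlapped the vehicle range of 37.4 to 77.3. These 5 genes were called lower under some alternatives, among them library weights for all 5, and the sign of ASCL2 turned with the code block (0.25, not called).

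**Figure D2:**
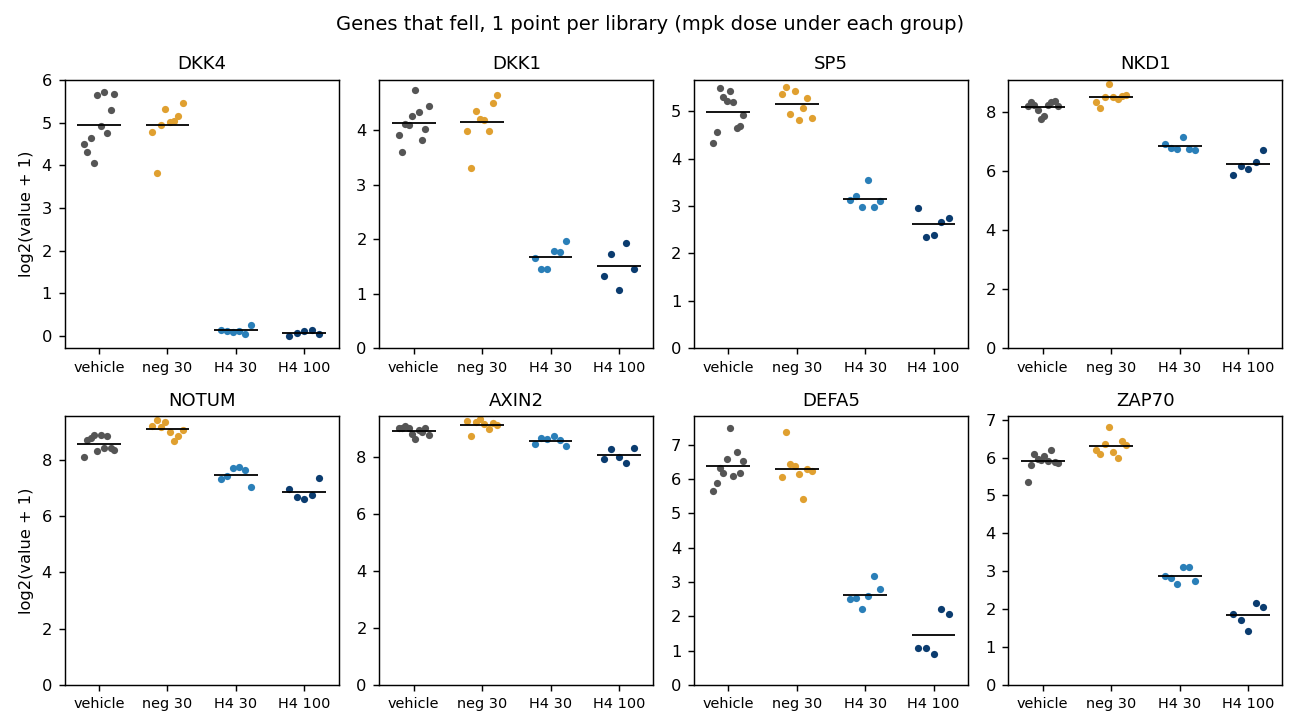
Each point is 1 library, with the group on the horizontal axis (vehicle, Helicon4neg at 30 mpk, Helicon4 at 30 and 100 mpk) and log2(scaled CPM + 1) on the vertical axis; the line is the group mean. For DKK4, DKK1, SP5, NKD1, NOTUM, DEFA5 and ZAP70 all 6 libraries at 30 mpk lie below all vehicle libraries, and for AXIN2 the ranges overlap.

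TCF and LEF factors bind a short DNA motif, and the genes that fell most were looked up for its core, CTTTGAT or its reverse complement ATCAAAG, in the 250 bases before the RefSeq gene start (GRCh38.p14). Of the 15 largest falls, 9 had a promoter in the table and 2 held the motif, ZAP70 and SERPIND1. Of the 15 core genes 6 had a promoter in the table, and SP5 held it. SP5, ZAP70 and SERPIND1 are shown because their transcripts fell without overlap and their promoters carry these letters, in capitals. The SP5 window was chr2:170715087-170715336, plus strand, with the motif at -109 from the gene start. The ZAP70 window was chr2:97713326-97713575, plus strand, with the motif at -59. The SERPIND1 window was chr22:20773863-20774112, plus strand, with the reverse complement at -145.
SP5: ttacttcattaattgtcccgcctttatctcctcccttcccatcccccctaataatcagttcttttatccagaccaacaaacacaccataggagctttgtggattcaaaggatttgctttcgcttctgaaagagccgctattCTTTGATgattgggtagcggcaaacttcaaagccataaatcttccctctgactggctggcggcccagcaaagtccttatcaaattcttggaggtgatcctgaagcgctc
ZAP70: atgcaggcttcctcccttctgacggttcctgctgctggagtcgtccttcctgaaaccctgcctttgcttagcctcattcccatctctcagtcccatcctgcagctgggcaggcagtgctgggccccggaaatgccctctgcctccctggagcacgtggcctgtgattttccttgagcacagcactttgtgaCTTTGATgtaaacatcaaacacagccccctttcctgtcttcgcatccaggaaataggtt
SERPIND1: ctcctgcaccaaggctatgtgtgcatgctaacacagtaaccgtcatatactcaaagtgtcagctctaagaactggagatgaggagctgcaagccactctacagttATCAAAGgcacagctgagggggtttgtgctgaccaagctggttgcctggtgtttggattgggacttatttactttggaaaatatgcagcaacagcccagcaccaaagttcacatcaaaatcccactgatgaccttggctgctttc
Shares over many promoters were counted in a longer window, which held the 250 bases and also some bases past the gene start. Across all 27305 promoters listed, 2.64% held the motif there, as did 1.46% of those of the genes tested. The share was 1.61% for genes called higher and 2.17% for genes called lower. Of the 64 called at least 2-fold lower that had a promoter, 4 held the motif (6.25%). None of the 40 promoters of genes called at least 2-fold higher held it. A match is a description of the letters in the window searched.

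Of 33 measured genes on a wider list of Wnt targets, 11 fell (33.3%, against 5.22% of all genes) and 5 rose (15.2%, against 5.86%). The median of the 33 was -0.21. Beside the core genes, NRCAM (-1.33), TNFRSF19 (-0.99), APCDD1 (-0.85), WIF1 (-0.76) and TSPAN5 (-0.66) fell. APCDD1 and WIF1 also encode secreted or membrane-bound Wnt inhibitors; except for TNFRSF19 these names were chosen after their values were seen. The 5 that rose were EPHB3 (1.66), SOX9 (1.20), ID3 (0.94), PTPN14 (0.60) and SOX4 (0.59). SOX9, a transcription factor gene of the crypt base, had 4.03, 4.53 and 5.93 scaled CPM in vehicle and 9.81, 11.8 and 15.9 with Helicon4, with no overlap. With the code block 5 of the 33 were called lower and 1 higher, and the call of SOX9 was lost (1.24, adjusted p = 0.074).

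Of 37 ligands, receptors and cytoplasmic components measured, 2 rose and 2 fell (10.8%, against 11.1% of all genes), with a median of 0.07. The receptor gene FZD10 fell from 67.1 ± 16.7 (SD, n = 10) to 25.8 ± 4.93 scaled CPM (SD, n = 6), with no overlap (-1.32 ± 0.17, adjusted p = 1.03e-06), and the ligand gene WNT6 from 0.993 ± 0.247 to 0.237 ± 0.0754 (-0.68 ± 0.10). The ligand gene WNT5A, known for signaling outside the β-catenin branch, rose from 27.9 ± 4.5 to 42.7 ± 3.68 (0.61 ± 0.15, adjusted p = 0.00606), also without overlap. Of 19 TCF and LEF factors and coactivators only HIC1, a transcriptional repressor gene, was called, at 0.65 ± 0.07, and the median of the 19 was 0.22. None of these calls was kept with the code block.

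The 15 largest falls reached beyond Wnt genes, and in all 15 the treated libraries lay below every vehicle library, against 2.39% of all genes. They were chosen as the largest called falls in these same libraries, which favors such a separation. DEFA5, which encodes an antimicrobial defensin of Paneth cells, had 48.8, 75.7 and 179 scaled CPM in vehicle and 3.6, 4.88 and 8.06 with Helicon4 (-3.74 ± 0.25, adjusted p = 1.64e-12). ZAP70, a tyrosine kinase gene known from T-cell receptor signaling, had 39.8, 59.9 and 71.9 against 5.38, 6.18 and 7.59 (-3.02 ± 0.12, adjusted p = 2.84e-17). Of the 4 leukocyte markers measured, CTSS was called lower (-0.77, a call ended by the code block), ITGAM was called higher (0.29, a call lost with that block and under 12 other alternatives), and PTPRC (0.04) was among those not called. Their part in the ZAP70 result was not tested. GLT1D1, a glycosyltransferase-like gene, had 3.2, 6.01 and 9.5 against 0.0858, 0.171 and 0.244 scaled CPM, 4 to 12 reads per treated library (-2.58 ± 0.14).

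Beside DKK4 and DKK1, the other falls described here ran from -2.43 to -1.87. Among secreted products were POMC, the precursor of several peptide hormones (-2.43), FGF20, a growth factor (-2.09), and SERPIND1, a thrombin inhibitor of plasma (-2.01). Membrane proteins included the adrenergic receptor ADRA2C (-2.05), the potassium channel subunit LRRC55 (-2.13), the semaphorin SEMA5B (-1.97) and PMP22, known from peripheral myelin (-1.87). The small GTPase gene RASL11B fell by 2.05 and the zinc finger gene ZNF831 by 1.91. Libraries of PMP22 lay close together, with 14.7 to 21.8 scaled CPM in vehicle and 3.64 to 5.09 with Helicon4. For POMC the vehicle libraries themselves ran from 2.92 to 20.5. With the code block, and so with library 1 as the treated arm, POMC, ADRA2C and SEMA5B were not called and 11 were.

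The largest rises were smaller. CALB1, which encodes the calcium buffer calbindin, had 0.918, 1.32 and 2.18 scaled CPM in vehicle and 7.56, 10.6 and 12.2 with Helicon4 (2.24 ± 0.16, adjusted p = 1.52e-11). PADI2, an enzyme gene whose product turns arginine of proteins into citrulline, had 2.74, 4 and 4.76 against 17.2, 21.8 and 27.1 (2.23 ± 0.13, adjusted p = 7.15e-14). BMF, a pro-apoptotic member of the BCL2 family, had 7.62, 9.55 and 11.5 against 28.8, 36.9 and 43.9 (1.84 ± 0.10, adjusted p = 3.49e-14). None of these ranges overlapped.

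EPHB3, a receptor tyrosine kinase gene that sorts cells along the crypt and a textbook Wnt target, rose rather than fell. Its vehicle libraries had 9.1, 12.3 and 14.7 scaled CPM and its treated ones 32, 40.8 and 49.7 (1.66 ± 0.12, adjusted p = 2.77e-11). No other of the 7 EphB receptors and ephrin-B ligands measured was called, so that 14.3% were called, near the 11.1% of all genes. TAC3, the precursor of neurokinin B, rose by 1.65 ± 0.20 from 2.69 ± 0.507 (SD, n = 10) to 11.1 ± 4.4 scaled CPM (SD, n = 6).

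The other 10 of the 15 largest rises lay between 1.64 and 1.31. They were INPP1, an inositol phosphatase (1.64), CEL, a lipase (1.60), MFAP4, a microfibril protein (1.54), TNMD, a membrane protein of tendon (1.52), NRXN2, a synaptic adhesion protein (from 1.86 ± 0.372 to 7.12 ± 1.21 scaled CPM), and HRC, a calcium binding protein (1.45), followed by KNG1, the kininogen of plasma (1.37), EDIL3, an integrin ligand (1.34), FN1, fibronectin (1.32), and HELZ2, a helicase (1.31). Groups did not overlap for 14 of the 15, where 1.96% of all genes had every treated library above every vehicle library. The 15 were chosen as the largest called rises in these same libraries, which favors such a separation. The exception was HELZ2, with 1.1 to 4.16 scaled CPM in vehicle and 3.15 to 13.8 with Helicon4. The code block ended the calls of TAC3, MFAP4, TNMD, KNG1, EDIL3 and FN1.

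**Figure D3:**
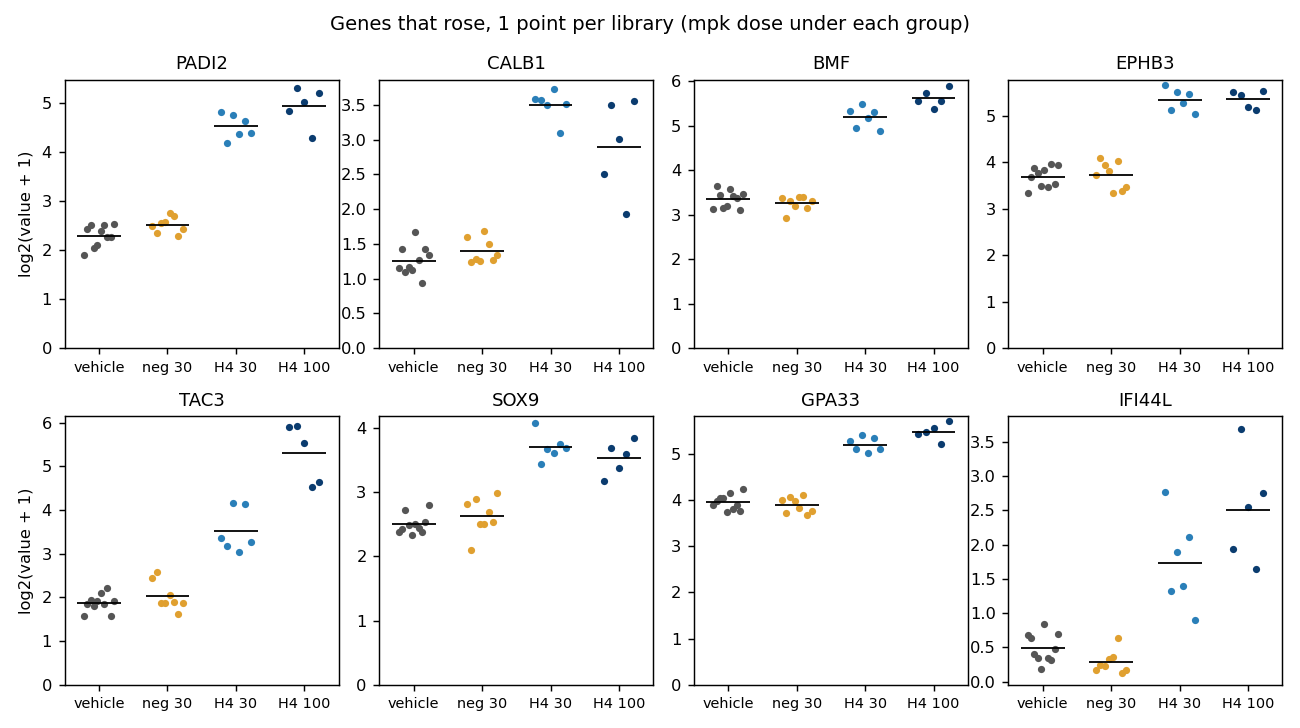
Each point is 1 library, by group as in the plot of genes that fell, with log2(scaled CPM + 1) on the vertical axis and the group mean as a line. All 6 libraries at 30 mpk lie above all vehicle libraries for each of the 8 genes shown, and IFI44L has the widest spread among them, from 0.863 to 5.82 scaled CPM.

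Smaller but tight changes marked the 10 further genes with the smallest p. HMGXB3, which encodes a protein with an HMG box, fell from 217 ± 12.3 (SD, n = 10) to 95.1 ± 4.62 scaled CPM (SD, n = 6), at -1.18 ± 0.07 (adjusted p = 1.66e-13). DACT1, a Dishevelled antagonist, fell from 26.2 ± 3.67 to 7.38 ± 1.42 (-1.70 ± 0.12). SLCO3A1, an organic anion transporter, went from 4.59 ± 0.794 to 0.626 ± 0.0377 (-1.77 ± 0.10). Also lower were the protease gene PRSS23 (-1.51), BAALC (-1.45), ZNF385C (-1.29), the kinase gene MAP3K8 (-1.25) and the pseudogene MTHFD2P1 (-1.22), whose reads may be shared with its parent gene. GPA33, a surface antigen of intestinal epithelium, rose from 14.6 ± 1.82 to 35.9 ± 3.96 (1.24 ± 0.09), and STAB2, a scavenger receptor gene, from 0.403 ± 0.109 to 2.22 ± 0.46 (1.19 ± 0.08). In all 10 the groups did not overlap, against 4.34% of all genes. They were chosen for the smallest p in these same libraries, which favors tight values and such a separation. With the code block all 10 kept their direction. Its treated arm is library 1 alone, which was also used to choose them, so this is no separate check.

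Helicon4neg at the same 30 mpk gives the comparison of the related compounds at a matched dose, and how their structures differ is not given in the sources used here. Against Helicon4neg, Helicon4 at 30 mpk changed 2018 genes (15.1%), 1041 higher (7.78%) and 977 lower (7.31%). Both comparisons use the same 6 Helicon4 libraries, so their results are not independent. All 15 rises were higher and all 15 falls lower than with Helicon4neg. DKK4 was -4.82 against Helicon4neg, ZAP70 -3.42, DKK1 -2.47, PADI2 2.01, BMF 1.93 and CALB1 2.10. Helicon4neg itself differed from vehicle in 647 genes (4.84%), 296 higher (2.21%) and 351 lower (2.62%). Of the 15 falls it moved 2, ZAP70 upward (0.40, adjusted p = 0.035) and RASL11B downward (-0.35, adjusted p = 0.025), and of the 15 rises none was called, while 1 core Wnt gene was, NOTUM (0.52, adjusted p = 0.014).

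Some vehicle differences were not differences between the compounds. ID3, a helix-loop-helix inhibitor gene, was 0.94 above vehicle with Helicon4 and 1.03 with Helicon4neg, and the compounds differed by -0.10 with limits of -0.49 and 0.30. Conversely ASCL2 and ZNRF3, not called against vehicle, were lower than with Helicon4neg (-0.59, adjusted p = 0.047, and -0.52, adjusted p = 0.0097). MYC differed by -0.27 between the compounds (limits -0.50 and -0.04, adjusted p = 0.12), and LEF1 by 0.05 (-0.13 to 0.22). With the code block, which here sets Helicon4 library 1 alone against 3 Helicon4neg libraries, 44 of the 53 core, largest-change and smallest-p genes kept their call or its absence, and AXIN2, ASCL2, ZNRF3, CTNNB1, TAC3, TNMD, KNG1, EDIL3 and FN1 lost it.

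The higher dose gives the values beyond 30 mpk. Between 100 and 30 mpk 482 genes were called (3.6%), 233 higher (1.74%) and 249 lower (1.86%) at 100 mpk, while 4043 (30.2%) differed between 100 mpk and vehicle. Of the 15 falls 5 went lower still. ZAP70 fell by a further 1.04 and DEFA5 by 1.17, followed by ADRA2C (-1.07), SEMA5B (-0.83) and SERPIND1 (-0.80). Among core genes NKD1 (-0.62), NOTUM (-0.61) and AXIN2 (-0.50) did so. Of the 15 rises 4 went higher, TAC3 by 1.77, TNMD by 1.08, HRC by 0.66 and BMF by 0.43.

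No further change was called for the remaining core genes, largest falls and largest rises, and for some the limits were narrow. PMP22 differed by -0.04 between the doses (limits -0.25 and 0.17), EPHB3 by 0.01 (-0.29 to 0.31) and DKK1 by -0.18 (-0.58 to 0.22). Falls already under 1 scaled CPM at 30 mpk can show little further change on this scale, so the absence of a call says little for them. FGF20 held 112 reads in 6 libraries at 30 mpk and 32 in 5 at 100 mpk. Of the 10 further genes with the smallest p, 3 were called lower at 100 than at 30 mpk and none higher. STAB2, among these 3, went against its direction, from 2.22 ± 0.46 scaled CPM at 30 mpk (SD, n = 6) to between 0.754 and 1.32 at 100 mpk (-0.64, adjusted p = 5.96e-05). CALB1 was also lower at 100 mpk, by a difference of -0.60 that was not called (adjusted p = 0.079). The number of genes called between the doses depended on single libraries and ran from 203 to 695 when each was left out.

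**Figure D4:**
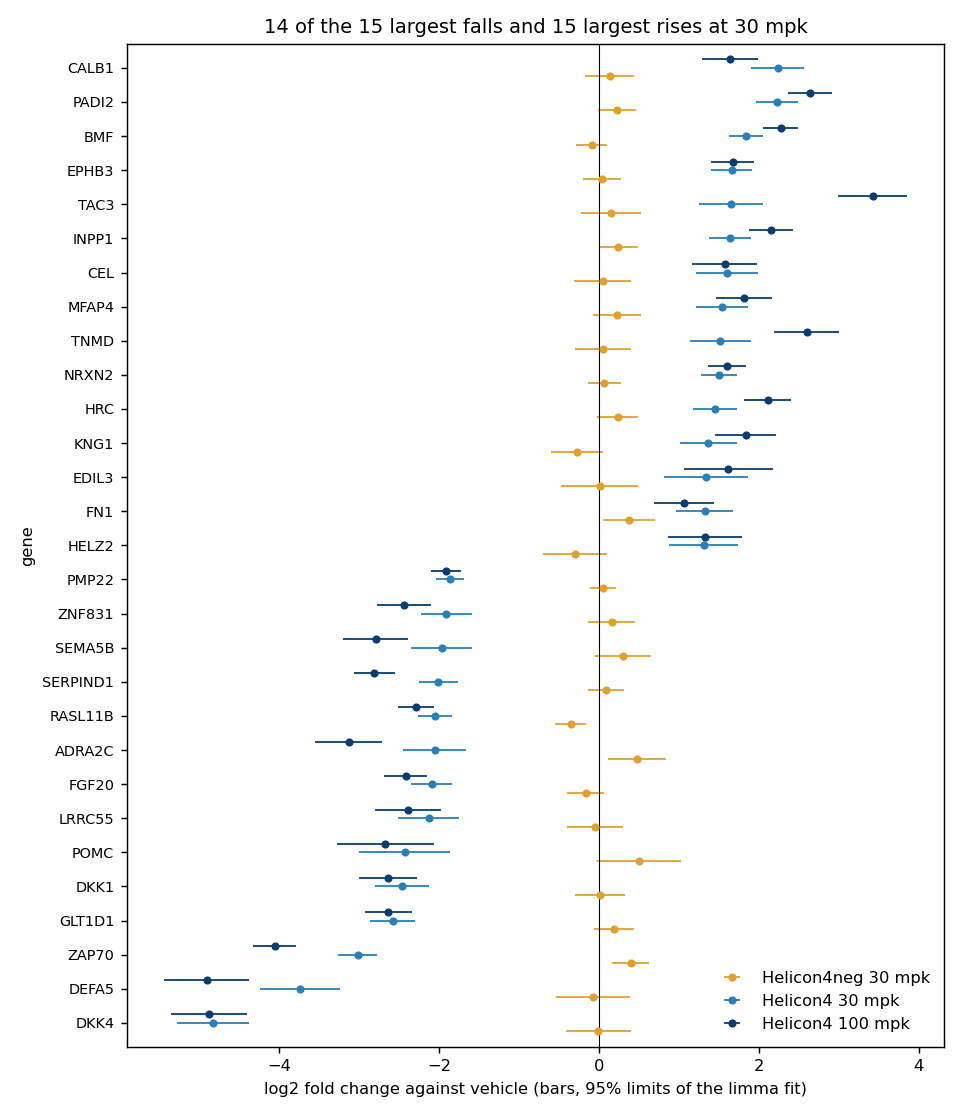
Log2 fold changes against vehicle with 95% limits (horizontal axis) for the 15 largest rises and 14 of the 15 largest falls at 30 mpk (vertical axis), for Helicon4neg at 30 mpk, Helicon4 at 30 mpk and Helicon4 at 100 mpk, which share the 10 vehicle libraries. Helicon4neg lies between -0.35 and 0.50 throughout, PMP22, DKK1 and EPHB3 have nearly the same value at both doses, and TAC3, TNMD, DEFA5 and ZAP70 lie farther out at 100 mpk.

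Of 37 interferon-stimulated genes measured, 18 rose (48.6%, against 5.86% of all genes), 1 fell and 18 were not called, with a median of 0.42 against -0.00 for all genes. IFI44L rose from 0.42 ± 0.211 (SD, n = 10) to 2.65 ± 1.79 scaled CPM (SD, n = 6), at 1.24 ± 0.22 (adjusted p = 0.000208). OASL, a relative of the oligoadenylate synthetases, rose by 0.93 ± 0.18 and the ubiquitin ligase gene HERC6 by 0.71 ± 0.12. MX1, an antiviral GTPase named after its value was seen, rose by 1.15 ± 0.26. ISG15 (0.40), also named after its value was seen, was not called, and EPSTI1 fell by 0.61. By library the median of the list ran from 0.15 in library 6 to 0.87 in library 1, so the treated libraries differed widely among themselves. Without library 1, 9 of 36 were called higher, and with the code block 1 of 37, OASL, at a median of 0.80. In Helicon4neg the median against vehicle was -0.19.

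Axon guidance genes, which encode semaphorins, slits, netrins and their receptors, were called higher in 12 of 33 cases (36.4%, against 5.86% of all genes) and lower in 2, while 19 were not called and the median was 0.21. SEMA5A had 25.7, 34.2 and 45.5 scaled CPM in vehicle and 63.1, 78.3 and 93.9 with Helicon4 (1.18 ± 0.13, adjusted p = 4.16e-08). SEMA6D rose from 0.785 ± 0.302 (SD, n = 10) to 2.55 ± 0.68 (SD, n = 6), and, among members chosen after their values were seen, SEMA3A by 0.75, NRP2 by 0.67 and SLIT2 by 0.61. SEMA5B and the receptor gene PLXNA2 (-0.88) fell. None of these calls was kept with the code block.

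Lists for amino acid supply and protein folding held falls and no rises. On the list of targets of ATF4, a transcription factor of the amino acid response, 14 of 34 fell (41.2%, against 5.22% of all genes). None of the 34 rose, and their median was -0.32. SLC1A5, a glutamine transporter gene, had 204, 297 and 408 scaled CPM in vehicle and 118, 141 and 164 with Helicon4 (-1.12 ± 0.13, adjusted p = 1.49e-07). SLC3A2 (-0.72), the transsulfuration enzyme gene CTH (-0.68) and the tRNA synthetase gene GARS (-0.48) fell too, as did, chosen after their values were seen, the cystine transporter gene SLC7A11 (-0.79), ASNS (-0.67) and ATF4 itself (-0.41). On the list of ER chaperones and the unfolded protein response 9 of 24 fell (37.5%) and none rose (median -0.25). ERN1, a sensor of that response, fell from 44.7 ± 4.94 (SD, n = 10) to 31.4 ± 2.84 (SD, n = 6), DNAJB11 by 0.41 and HSP90B1 by 0.37. In each treated library the median of the ATF4 list lay below that of every vehicle library, at -0.41 to -0.24 against -0.17 to 0.21. With the code block 1 of 34, CTH, and 0 of 24 were called, at medians of -0.33 and -0.38.

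**Figure D5:**
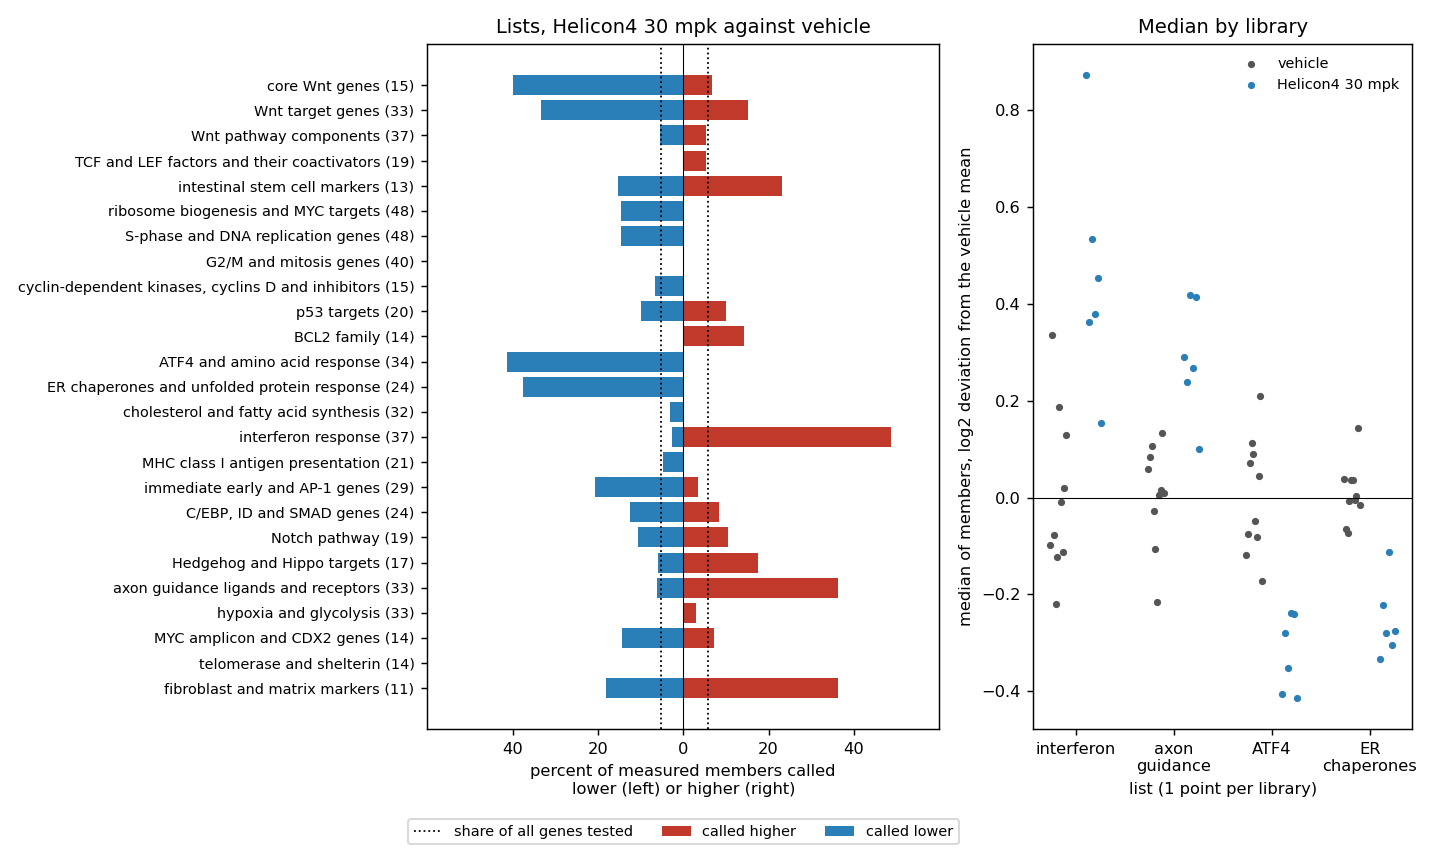
Left, percent of the measured members of each list of at least 10 genes (number in brackets) that was called lower (to the left) or higher (to the right) at 30 mpk against vehicle, with dotted lines at the shares of all genes tested, 5.22% and 5.86%. Right, the median deviation of 4 lists from the vehicle mean, on the log2 scale, 1 point per library. The interferon list reaches farthest to the right and the ATF4 list farthest to the left, and library 1 stands highest for interferon at 0.87.

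On the list of immediate early and AP-1 genes 6 of 29 fell (20.7%, against 5.22% of all genes) and 1 rose (median -0.24). SPRY4, a feedback inhibitor of receptor tyrosine kinase signaling, had 9.04, 12.9 and 16.7 scaled CPM in vehicle and 2.29, 3.45 and 4.1 with Helicon4 (-1.64 ± 0.17, adjusted p = 2.87e-08). SPRY2, another, fell by 1.36 ± 0.15 and the ETS factor gene ETV4 by 1.49 ± 0.17. DUSP6, a phosphatase gene for ERK, was not called (-0.24), nor were FOS (-0.12), JUN (-0.41) and EGR1 (-0.19), all 4 named after their values were seen. FOS and JUN were higher with Helicon4neg than with vehicle (1.60 and 0.92), and lower with Helicon4 than with Helicon4neg (-1.73 and -1.33). BTG2, an antiproliferative gene, rose from 36.4 ± 5.52 (SD, n = 10) to 70.8 ± 8.56 (SD, n = 6), at 0.95 ± 0.10, and was the only member of the 29 called with the code block.

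Among C/EBP, ID and SMAD genes 3 of 24 fell and 2 rose (20.8% called, against 11.1% of all genes, median 0.02). CEBPD, a transcription factor gene, fell from 8.33 ± 3.56 (SD, n = 10) to 1.75 ± 0.387 scaled CPM (SD, n = 6), at -1.69 ± 0.19. BAMBI, a decoy receptor for TGF-β family ligands and a Wnt target, fell from 59.1 ± 8.73 to 27.6 ± 3.95 (-1.07 ± 0.10), and CEBPG by 0.39. Of 14 BCL2 family genes 2 rose and none fell, so that 14.3% were called, near the 11.1% of all genes. The median was -0.14, with 9 values below 0. The 2 that rose were BMF and BCL2L11 (0.45 ± 0.08), both of them BH3-only killers. Of 20 p53 targets BTG2 and SESN1 (0.33) rose while CDKN1A (-0.68 ± 0.13) and AEN (-0.34) fell (20% called). CDKN1A, the p21 cell cycle inhibitor gene, had 1.67 to 3.94 scaled CPM in vehicle and 1.08 to 1.61 with Helicon4. Except for BMF and BTG2 these calls were lost with the code block, and those of AEN and SESN1 also without Helicon4 library 1 (adjusted p = 0.169 and 0.0586, limma).

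On the list of ribosome biogenesis and MYC targets 7 of 48 fell (14.6%, against 5.22% of all genes) and none rose, with a median of -0.19 and 44 of the 48 values below 0. ODC1, the rate-limiting enzyme gene of polyamine synthesis, fell from 912 ± 87.2 (SD, n = 10) to 668 ± 44.9 scaled CPM (SD, n = 6), at -0.45 ± 0.10, and the nucleolar genes NCL (-0.31) and GNL3 (-0.27) fell as well. Of 48 S-phase genes 7 also fell (14.6%) and none rose (median -0.19, 45 values below 0), led by PCNA (-0.46), RFC4 (-0.38), CDC45 (-0.35) and MCM3 (-0.34). Without library 1, 4 of the 48 growth genes and 1 of the 48 S-phase genes were called lower, and the S-phase count was 4 without Helicon4 library 5 or without vehicle library 2, 3 or 5, and 11 without vehicle library 4. None of 40 mitosis genes was called, and their median was -0.00. Of 84 cytosolic ribosomal protein genes 1 was called, at a median of -0.23 that turned to 0.08 with the code block and 0.03 with a length covariate. The ribosome biogenesis and S-phase lists lost all their calls with the code block.

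Gene length went with the fold change. Of the 3343 genes with the longest models (at least 7309 bases) 310 were called higher and 117 lower, and of the 3344 with the shortest (at most 3127 bases) 122 were called higher and 233 lower. Across genes, which are not independent, Spearman's rho between length and fold change was 0.347. The slope of log2 values on length averaged 0.04 with Helicon4 and -0.04 in vehicle. The two-sided p of an exact permutation test was 0.0506, or 0.202 after adjustment for the 8 library measures taken. Its part in the gene results was not tested beyond a fit that held the slope as a covariate. In that fit the interferon list had 22 higher, the ATF4 list 16 lower and the Wnt target list 5 higher and 18 lower. Of 124 named or listed genes 116 kept their side of the threshold there, 4 lost their call and 4 gained one.

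Genes of the MYC amplicon, listed together with CDX2, an intestinal transcription factor gene, were called in 3 of 14 cases (21.4%, against 11.1% of all genes). Among them CASC11 (0.27) was higher, and POU5F1B (-0.41) and GTF3A (-0.33) were lower. The CDX2 value was -0.22 and that of PVT1 0.23, neither called. Against Helicon4neg both were lower, CDX2 at -0.63 and PVT1 at -0.45, while Helicon4neg was above vehicle for both (0.40 and 0.68). All 3 calls were lost with the code block, that of CASC11 also without Helicon4 library 3 or 5, and that of GTF3A without library 1 among 7 alternatives.

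Markers of intestinal lineages moved in both directions, where 11.1% of all genes tested were called. Of 13 stem cell markers SOX9, LRIG1 (0.46) and PTK7 (0.24) rose, and TNFRSF19 (-0.99) and RGMB (-0.34) fell. Of 6 enterocyte markers GPA33 rose, FABP2, a fatty acid carrier gene, fell from 31.7 ± 7.18 (SD, n = 10) to 10.5 ± 1.88 scaled CPM (SD, n = 6), at -1.49 ± 0.15, and the carbonic anhydrase gene CA2 fell by 0.60. Of 3 goblet and Paneth cell markers, ATOH1, the secretory lineage factor gene, rose by 0.53 ± 0.10 while DEFA5 fell. Among 7 neuroendocrine markers SNAP25 rose by 0.43 and NCAM1 fell by 0.51. Beside the GPA33 and DEFA5 calls, none of these was kept with the code block, and that of SNAP25 was lost under 8 further alternatives.

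Matrix and stromal genes were also mixed. Of 11 fibroblast and matrix markers 4 rose (36.4%, against 5.86% of all genes) and 2 fell (18.2%, against 5.22%). FN1, COL1A1 (0.74), PDGFRA (0.41) and COL5A1 (0.37) rose, and BGN (-1.10) and MMP2 (-0.79) fell. The summed level of the 11 ran from 214 to 318 scaled CPM in vehicle and from 192 to 253 with Helicon4. MMP2, a gelatinase gene and a large part of that sum, had 119 to 184 in vehicle and 77.8 to 110 with Helicon4. Of 20 collagen genes 6 rose (30%, against 5.86% of all genes) and 1 fell (median 0.32). Of 40 histone genes 10 rose (25%) and 2 fell (5%), but near-identical copies share reads, so single histone genes are uncertain. None of these calls was kept with the code block.

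Of 5 endothelial markers 2 fell (40%, against 5.22% of all genes) and none rose, with CLDN5 far ahead of the others. These libraries may hold reads of the mouse host counted under human genes. The mean log2 level of the 5 endothelial markers was 2.77 ± 0.14 (SD, n = 10) in vehicle and 2.45 ± 0.15 (SD, n = 6) with Helicon4, a difference of -0.32. An exact permutation test gave a two-sided p of 0.000874, and 0.00699 after adjustment for the same 8 measures. CLDN5, a tight junction gene, had 6.44, 13.7 and 25.6 scaled CPM in vehicle and 3.57, 5.43 and 7.05 with Helicon4, ranges that overlapped (-1.16 ± 0.23, adjusted p = 0.000817; -0.23 with the code block, not called). FLT1 (-0.27, adjusted p = 0.0497) was also called, but not with the code block or under 13 of 24 other alternatives, while EGFL7 (-0.21), ESAM (-0.07) and ENG (0.10) were not. The summed level of the list ran from 45.8 to 98.7 in vehicle and from 36.4 to 59.6 with Helicon4. In bulk tumors fewer cells of a type and less RNA per cell cannot be told apart, and the part of host reads in the other results was not tested. The leukocyte markers had a mean difference of -0.06 and the fibroblast markers 0.11, neither passing (adjusted p = 0.629 and 0.303, exact permutation tests).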

How the data were processed

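PolyA RNA of xenograft tumors was sequenced in 29 libraries, and groups were taken from the library labels. The deposited values are a signal per gene, reads divided by the authors' effective library size in M, with each library's values summing to 0.92 to 1.26 M and all being whole multiples of 1 read within 0.05 reads. The submitters' processing notes name GRCh38, the trimmer Trimmomatic 0.39, the aligner STAR 2.7.7a, the counter featureCounts in Subread 2.4.2 and, as a further tool, edgeR 4.0.2. No mouse genome is named there, so host reads may count under human genes.

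Genes with a value of at least 1 in at least 5 libraries were tested on log2(value + 1) with limma 3.58.1 (trend, robust, statmod 1.5.0, R 4.3.3), with all 4 groups in 1 fit, Benjamini-Hochberg adjustment over all genes and a threshold of 0.05. Exact permutation tests (scipy 1.17.1) were used for values per library. The fit was tested on simulated data. Gene lengths were those deposited with the values. Gene types and positions came from GENCODE 29, which matched 13479 genes, and promoters from RefSeq. Of 863 entries in 35 lists 706 matched.

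Named genes were the 15 core Wnt genes, the 15 largest rises and 15 largest falls among called genes with a mean of at least 5 in either group (clone-style, LINC, antisense and pseudogene symbols left out), up to 4 members of each list with the smallest adjusted p, and the 10 further genes with the smallest p. The members and lists were chosen with earlier results of these data known. Alternatives changed the pseudocount, filter, scaling, weights, covariates and libraries. Results for 1 of the 15 largest falls and for 1 list member are not reported here.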

Additional observations from a re-analysis of the deposited data

Results flagged for a closer look

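In 21 of 264 groups of values 1 library lay far from the others of its group by Dixon's test, which chance does in about 1 in 20 groups.

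With Helicon4 at 30 mpk, library 1 stood apart for HERC6 (25.71 scaled CPM, the others 14.92 to 16.86), NDRG1 (14.51, the others 7.938 to 9.813), NCAM1 (1.542), GARS (108.6, below 134.4 to 142) and GTF3A (203.2, below the others). Library 4 stood apart for SERPIND1 (2.308, the others 1.446 to 1.712), SEMA5B (2.703), PDIA4 (280.5) and BGN (27.61), and its 50 highest genes held 17.49% of all values against 18.6 to 19.19% in the others. Library 6 had 4.377 for CA2, the others 1.766 to 2.624.

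In vehicle, library 6 was high for DEFA5 (179.2, the others 48.83 to 109), PCNA (627, the others 309.3 to 414.3) and BAMBI (81.62). Library 1 was low for WNT6 (0.4432) and TEAD2 (37.33), and library 2 high for OASL (1.768) and GLI2 (10.76). Library 4 was high for HMGXB3 (245.5), library 5 for AEN (53.64) and library 10 for KNG1 (5.72).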

How the results depend on the processing

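Against vehicle 1481 genes were called, 783 higher and 698 lower. Leaving out each library in turn gave 983 to 1621 (502 to 871 higher, 481 to 750 lower), the lowest without Helicon4 library 1 at 30 mpk. With the title code as a block 74 were called (31 higher, 43 lower), with library weights 3844 (1844 and 2000), and with the length slope 2249, of which 1172 were lower. Without vehicle library 6 and Helicon4neg library 2, 2193 were called, 1134 of them lower, and with a minimum of 5 in 5 libraries 507 were higher. A pseudocount of 0.1 gave 1465 called genes, TMM factors 1468, no trend or robust fitting 1486, no filter 1517 and a fit of only the 2 groups 1696. The code block rests on Helicon4 library 1 alone against vehicle and Helicon4neg, and on library 6 alone against 100 mpk, so its counts describe those libraries.

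Against Helicon4neg 2018 genes were called (1041 higher, 977 lower), and 1500 to 2295 when each library was left out (769 to 1169 higher, 731 to 1126 lower). The code block gave 184 (85 and 99), the length slope 3440 (1647 and 1793) and library weights 4921 (2394 and 2527). The minimum of 5 gave 678 higher.

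Between 100 and 30 mpk 482 genes were called (233 higher, 249 lower), and 203 to 695 when each library was left out (96 to 306 higher, 107 to 389 lower). The count was 203, 240 and 316 without 100 mpk libraries 2, 3 and 4, and 280 and 253 without 30 mpk libraries 2 and 4. The code block gave 10 (7 and 3), the length slope 2000 (912 and 1088), the removal of both libraries 1051 (474 and 577) and library weights 3904 (1902 and 2002). The minimum of 5 gave 145 higher. The causes of these shifts were not tested.

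Whether replicate numbers pair the libraries is not known, and the main fit took them as unpaired. Residuals correlated above 0.1 for 3 of the 6 numbers shared by vehicle and Helicon4 at 30 mpk (0.21 to 0.35). For the rest the correlation was negative (-0.28 to -0.13). This cannot decide the question, because libraries of different numbers were not compared in the same way. With a replicate block 1519 genes were called against vehicle (791 higher, 728 lower), 1605 against Helicon4neg and 366 between doses, and 118 of 124 named or listed genes kept their side of the threshold against vehicle. The edgeR and DESeq2 alternatives on whole reads were not run, because reads recovered from the values passed the test of low values in only part of the columns.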
